A study of Mus musculus with 6 samples.

Results

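The 38 genes described here are a fixed list of B cell and lymphoid follicle genes: components of the B cell receptor and of its signalling, B cell surface receptors, lymphotoxins and receptors of the TNF family, transcription factors of the B lineage, leukocyte-wide genes and vascular addressins. They were found by their platform gene symbols, which gave 69 probe sets of 37 genes among the 18193 genes with a single symbol on the array. Cd38 was not analysed here. The list was not chosen by a threshold on these arrays, but it was drawn up with earlier results of the same data known.

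Expression had been measured in the colon of 3 HDAC2 KO mice and 3 control mice, each hybridised as biotin-labelled cRNA to 1 Affymetrix mouse array. In the HDAC2 KO group a floxed Hdac2 gene, which encodes a histone deacetylase, was deleted by a villin-Cre transgene, whose promoter is active in intestinal epithelial cells. The exact alleles of the control mice and the ages are not given in the sources used here. All mice were of a mixed CD-1/129/C57BL/6 background, untreated and on a normal diet. The titles and the genotype label name HDAC2 alone, whereas a description label of the same arrays names HDAC1 as well. The source label names epithelium and the extraction protocol names the colon.

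Values are RMA signals on the log2 scale, where a difference of 1 is a factor of 2. Each difference is HDAC2 KO minus control, with its standard error (SE). Each gene was represented by its probe set of highest mean signal, and the 10916 genes whose mean over the 6 arrays reached the 40th percentile, a signal of 6.66, were tested with limma. A gene is called higher or lower where its Benjamini-Hochberg adjusted p over all genes tested was under 0.05. Hdac2 itself was lower by 13.7%, at 10.21, 10.12 and 10.24 on the HDAC2 KO arrays and 10.40, 10.37 and 10.43 on the control arrays (difference -0.21, SE 0.040, limma adjusted p = 0.00893). The position of its probe sets with respect to the deletion is not known here, so this checks the deletion only in part. It was not called in a fit over every probe set (adjusted p = 0.0768) or without probe sets that can bind several transcripts (adjusted p = 0.0957). Hdac1 read 10.47, 10.41 and 10.52 in HDAC2 KO and 10.35, 10.29 and 10.31 in control and was called higher (0.15, SE 0.039, limma adjusted p = 0.0321), a call lost without the signal filter (adjusted p = 0.0925). Every array read above 6.66 for both Xist, which is transcribed from the inactive X chromosome of females, and the Y-linked gene Eif2s3y. Xist lay between 11.52 and 11.56 in HDAC2 KO and between 11.99 and 12.04 in control, and Eif2s3y lay between 7.89 and 8.32 in HDAC2 KO and between 7.48 and 7.56 in control. Kdm5d, another Y-linked gene, read 7.71, 7.36 and 7.84 in HDAC2 KO. In control it read 6.96, 7.02 and 6.90, near the filter level. Whether these control values are above background was not tested. The labels name 1 mouse per array, but if both signals are real on every array the p-values may measure the spread of pools or of technical repeats. The part of sex in the results below was not tested. The markers of smooth muscle averaged 12.35 to 12.38 in HDAC2 KO and 12.21 to 12.24 in control, so the samples were not epithelium alone.

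In the gut wall, B cells gather with T cells and stromal cells in Peyer's patches, colonic patches and isolated lymphoid follicles. Lymphotoxin on the surface of lymphocytes and lymphoid tissue inducer cells acts on the lymphotoxin beta receptor of stromal and endothelial cells, which in return make chemokines and vascular addressins that draw in more lymphocytes. A mature B cell recognises antigen with membrane immunoglobulin paired to the CD79A and CD79B chains, and depends on the cytokine BAFF for survival.

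The B cell and follicle genes were lower in HDAC2 KO as a group, with few exceptions among those that passed the signal filter. Of the 27 genes that passed the signal filter, 25 were called lower, 0 were called higher and 2, Irf8 and Blnk, were not called. Among all genes tested, 8.20% were called lower and 9.68% higher. The filter used the mean over both groups, and 4 of the 27 had an HDAC2 KO mean under 6.66, so these passed only because of the control arrays. Without the filter, 24 of all 37 genes were called lower and 0 higher, against 3.74% lower and 3.88% higher among all 18193 genes. The median difference over the 37 genes was -0.46, compared with 0.006 over the 18193 genes. A fall of at least 1.5-fold was called for 12 of the genes, against 0.934% of the genes tested.

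The fall was of like size on each array. The median of the 37 genes, relative to their control means, was -0.47, -0.42 and -0.43 on the HDAC2 KO arrays of replicates 1, 2 and 3, and 0.03, 0.02 and -0.03 on the control arrays. Of the 27 genes tested, 25 had every HDAC2 KO array below every control array and 1 had every HDAC2 KO array above, against 17.7% and 19.9% of all genes tested. In 27 of all 37 genes every HDAC2 KO array lay below every control array, as for 13.6% of all 18193 genes. In 1 gene, Blnk, every HDAC2 KO array lay above every control array, as for 15.2% of all genes. In the other 9 genes the groups overlapped. Without any single array, 23 to 25 of the genes tested were called lower. In these bulk samples, fewer B cells and less RNA of a gene per B cell cannot be told apart.

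**Figure D1:**
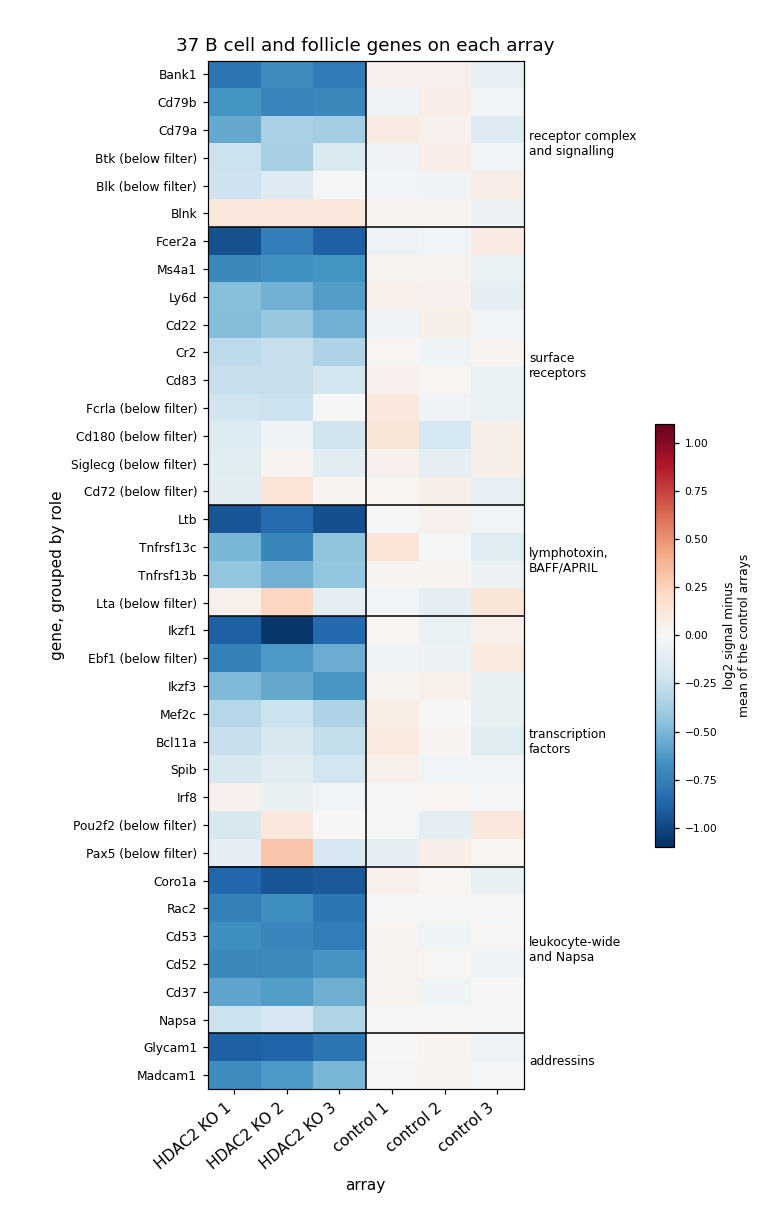
Signal of the 37 genes (rows, grouped by role) on the 3 HDAC2 KO and 3 control arrays (columns), as log2 signal minus the mean of the control arrays. Blue cells lie below the control mean, and in 27 genes all 3 HDAC2 KO arrays are below all 3 control arrays.

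The chains that carry the B cell receptor signal were lower, whereas the adaptor Blnk was not. Of the 6 genes of the receptor complex and its signalling, 4 were tested and 3 called lower, with a median difference of -0.34 over the 6. Cd79b, which encodes a signalling chain of the receptor, read 7.90, 7.83 and 7.85 in HDAC2 KO and 8.52, 8.63 and 8.53 in control, which is 1.62-fold lower (difference -0.70, SE 0.041, limma adjusted p = 2.02e-05). Its partner Cd79a read 6.47, 6.68 and 6.65 in HDAC2 KO and 7.13, 7.08 and 6.89 in control, 1.35-fold lower (-0.43, SE 0.076, adjusted p = 0.00662). Both chains thus separated the groups, Cd79a with a gap of 0.21 between the highest HDAC2 KO and the lowest control array and Cd79b with a gap of 0.63. The HDAC2 KO mean of Cd79a, 6.6, was under the filter level.

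Bank1, a scaffold protein of B cell receptor signalling, read 7.89, 8.0 and 7.92 in HDAC2 KO and 8.73, 8.73 and 8.60 in control, 1.68-fold lower (-0.75, SE 0.048, limma adjusted p = 3.33e-05). The kinase genes Blk and Btk were below the filter. Btk averaged 6.52 ± 0.10 in HDAC2 KO and 6.78 ± 0.069 in control (SD, n = 3) with no overlap, and was not called in the fit without the filter (limma adjusted p = 0.0581), whereas the groups of Blk overlapped at 6.24 ± 0.11 and 6.37 ± 0.063. Btk is X-linked, and the part of sex in its difference was not tested.

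Blnk, the adaptor that links the receptor's kinases to their targets, read 11.58, 11.59 and 11.58 in HDAC2 KO and 11.50, 11.49 and 11.40 in control (0.12, SE 0.037, limma adjusted p = 0.0708). Its signal was the highest of the listed genes, with a control mean of 11.47 against 8.56 for Cd79b. How much of the Blnk signal comes from B cells was not tested. The HDAC2 KO arrays were the higher ones, but the difference did not pass the threshold. It passed with array weights and when limma's variances were made robust with a trend on intensity, and the adjusted p lay between 0.0196 and 0.300 over the alternatives. The 250 bases before the Blnk start site (RefSeq, GRCm38.p6, chr19:40994222-40994471, minus strand) are shown because they hold the octamer bound by the B lineage factor OCT2 and by OCT1, in capitals. Among the genes searched, Blnk alone held it.
Blnk: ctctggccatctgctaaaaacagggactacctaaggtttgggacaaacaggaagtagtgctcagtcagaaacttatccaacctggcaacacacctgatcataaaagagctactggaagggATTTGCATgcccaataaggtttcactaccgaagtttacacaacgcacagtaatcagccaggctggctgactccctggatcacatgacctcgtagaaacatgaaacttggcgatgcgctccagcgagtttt
The octamer ATGCAAAT lies here on the opposite strand, beginning 130 bases before the start site, and 1.60% of all 32851 promoter windows held it on either strand.

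Surface receptors of mature B cells were lower, and every one of the 6 that passed the filter was called. The median difference over the 10 surface receptor genes with a probe set was -0.26. Fcer2a, the low-affinity IgE receptor CD23 of follicular B cells and follicular dendritic cells, read 6.74, 6.95 and 6.80 in HDAC2 KO and 7.64, 7.67 and 7.79 in control, 1.83-fold lower (-0.87, SE 0.061, limma adjusted p = 5.80e-05). A second Fcer2a probe set, below the filter level, was not called (-0.29, limma adjusted p = 0.209 over all probe sets). Ms4a1, which encodes CD20, read 8.91, 8.95 and 8.96 in HDAC2 KO and 9.65, 9.66 and 9.55 in control, 1.60-fold lower (-0.68, SE 0.040). A second Ms4a1 probe set fell by 0.83 on the log2 scale, and its groups did not overlap either. Cr2, which encodes the complement receptor CD21, was lower by less, at 6.79, 6.83 and 6.74 in HDAC2 KO and 7.10, 7.03 and 7.11 in control, 1.22-fold (-0.29, SE 0.040, adjusted p = 0.00199).

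Ly6d, a surface protein of the early B lineage and also of some epithelia, averaged 7.84 ± 0.076 in HDAC2 KO and 8.37 ± 0.084 in control (SD, n = 3), 1.45-fold lower with no overlap. Cd83, found on activated B cells and dendritic cells, was 1.18-fold lower (-0.24, SE 0.042, limma adjusted p = 0.00662), but was not called in the fit over every probe set (adjusted p = 0.0582). The inhibitory lectin Siglecg, the inhibitory receptor Cd72, the Toll-like receptor homolog Cd180 and the intracellular Fc receptor homolog Fcrla were below the filter. Their differences lay between -0.15 and 0.03, and the groups overlapped in all 4. Fcrla had a further probe set that averaged 5.98 ± 0.11 in HDAC2 KO and 6.44 ± 0.17 in control (SD, n = 3) with no overlap (-0.46, SE 0.095, limma adjusted p = 0.0451 over all probe sets).

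Cd22, a sialic acid-binding lectin that restrains the B cell receptor, read 8.20, 8.26 and 8.15 in HDAC2 KO and 8.64, 8.74 and 8.65 in control, 1.39-fold lower (-0.47, SE 0.043, limma adjusted p = 0.000255). The gap between the groups was 0.38. In a second Cd22 probe set, below the filter level, the groups overlapped (-0.38, limma adjusted p = 0.144 over all probe sets). The Cd22 promoter (RefSeq, GRCm38.p6, chr7:30879029-30879278, minus strand) is shown because, among the 28 genes with a promoter sequence, it alone held the 10-base palindrome of the B lineage factor EBF1, in capitals.
Cd22: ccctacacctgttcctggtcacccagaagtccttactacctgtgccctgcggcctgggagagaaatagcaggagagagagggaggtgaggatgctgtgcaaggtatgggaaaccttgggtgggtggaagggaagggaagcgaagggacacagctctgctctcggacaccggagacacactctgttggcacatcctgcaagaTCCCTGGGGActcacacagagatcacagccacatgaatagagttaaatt
The match begins 49 bases before the start site, and 0.779% of all promoter windows held the palindrome.

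**Figure D2:**
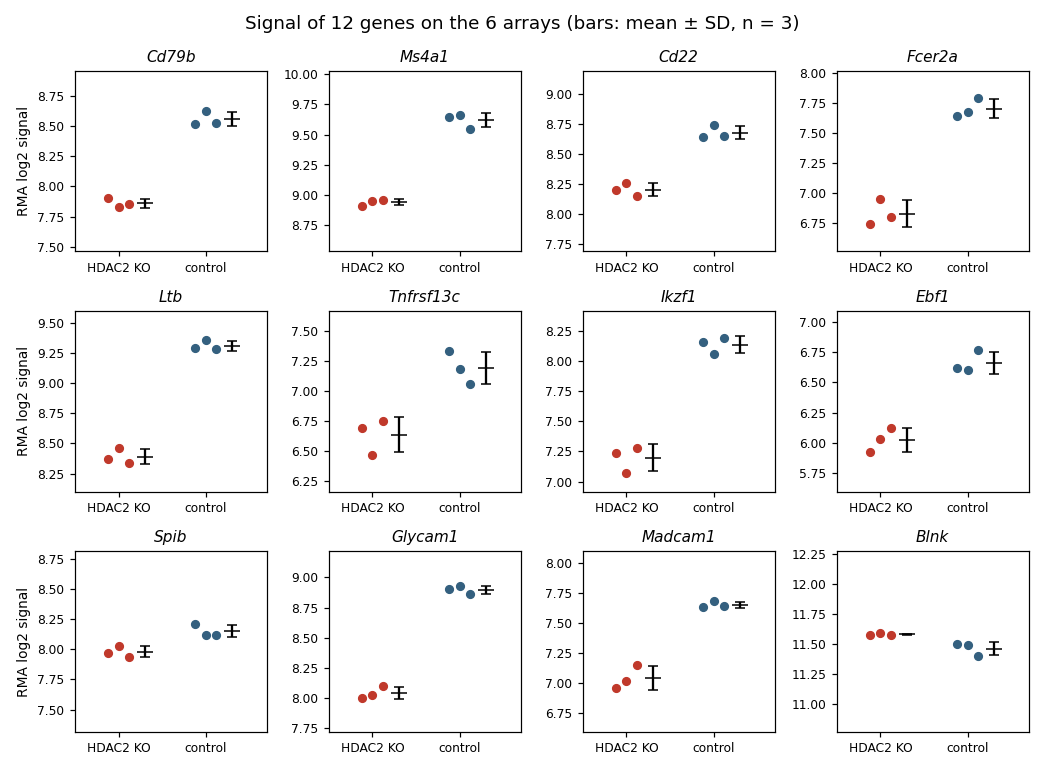
RMA log2 signal of 12 of the genes on each array (points), with the mean and SD of 3 arrays beside them, HDAC2 KO on the left and control on the right of each panel. Each vertical axis spans the same number of log2 units, so the distances between the groups can be compared, for example -0.92 for Ltb, -0.17 for Spib and 0.12 for Blnk.

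The lymphotoxin gene Ltb and the receptor genes Tnfrsf13c and Tnfrsf13b were lower, whereas the lymphotoxin gene Lta was not. Ltb, which encodes lymphotoxin beta, the chain that anchors lymphotoxin to the surface of lymphocytes, read 8.37, 8.46 and 8.34 in HDAC2 KO and 9.29, 9.36 and 9.28 in control. It was 1.89-fold lower (-0.92, SE 0.043, limma adjusted p = 5.51e-06) with a gap of 0.82 between the groups. Lta, which encodes the soluble lymphotoxin alpha, lay below the filter with overlapping groups, at 6.21 ± 0.17 in HDAC2 KO and 6.15 ± 0.11 in control (SD, n = 3).

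The BAFF receptor gene Tnfrsf13c read 6.69, 6.47 and 6.75 in HDAC2 KO and 7.33, 7.18 and 7.06 in control, 1.47-fold lower (-0.55, SE 0.087, limma adjusted p = 0.00385). Tnfrsf13b, which encodes TACI, a receptor for BAFF and APRIL, read 6.68, 6.59 and 6.69 in HDAC2 KO and 7.15, 7.15 and 7.05 in control, 1.38-fold lower (-0.46, SE 0.043, adjusted p = 0.000295). Neither receptor's groups overlapped, and of the 2 Tnfrsf13c varied more between arrays of a group. Both had HDAC2 KO means under the filter level, at 6.64 for Tnfrsf13c and 6.65 for Tnfrsf13b. The gene of the ligand BAFF, Tnfsf13b, belongs to the list of lymphoid tissue organisation given below, but its own value is not reported here.

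Both vascular addressins were lower. Glycam1, a sulphated mucin-like ligand of L-selectin in high endothelial venules, read 8.0, 8.02 and 8.10 in HDAC2 KO and 8.90, 8.93 and 8.86 in control, 1.81-fold lower (-0.86, SE 0.040, limma adjusted p = 5.19e-06). Madcam1, the ligand of the gut-homing integrin alpha4beta7 on mucosal venules, read 6.96, 7.02 and 7.15 in HDAC2 KO and 7.63, 7.68 and 7.64 in control, 1.52-fold lower (-0.61, SE 0.051, adjusted p = 0.00016). In both genes the HDAC2 KO arrays lay well below the control arrays, by gaps of 0.76 and 0.48. Blood and lymphatic endothelial markers were lower too: 4 of the 8 tested were called lower and 0 higher, among them Vwf, the von Willebrand factor gene, at 1.52-fold (-0.60, SE 0.049) and Pecam1 at 1.27-fold (-0.34, SE 0.048). Their list averaged between 7.11 and 7.17 in HDAC2 KO and between 7.27 and 7.36 in control, and its part in the addressin result was not tested.

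The promoters of Ltb (chr17:35194257-35194506, plus strand) and Madcam1 (chr10:79664309-79664558, plus strand), from RefSeq on GRCm38.p6, are shown together because both genes were lower and both windows held a canonical 10-base site of the NF-kB family, the factors through which lymphotoxin receptors signal. The capitals mark it.
Ltb: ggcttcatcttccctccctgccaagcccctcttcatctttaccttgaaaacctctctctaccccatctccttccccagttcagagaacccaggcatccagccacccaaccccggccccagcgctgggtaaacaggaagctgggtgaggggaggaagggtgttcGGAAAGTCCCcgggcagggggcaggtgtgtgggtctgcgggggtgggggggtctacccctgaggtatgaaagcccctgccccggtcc
Madcam1: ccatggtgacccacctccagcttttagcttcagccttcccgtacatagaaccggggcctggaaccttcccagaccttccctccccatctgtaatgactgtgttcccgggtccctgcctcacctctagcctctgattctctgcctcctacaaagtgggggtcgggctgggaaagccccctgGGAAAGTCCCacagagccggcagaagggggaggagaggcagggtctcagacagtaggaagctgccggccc
Both matches lie on the opposite strand, beginning 87 bases before the start site in Ltb and 70 bases in Madcam1. The motif occurred in 46 of all 32851 windows (0.140%), and in 2 of the 38 windows of the 28 genes searched. In all, 11 motifs were searched on both strands in the 250 bases before each start site, among them shorter forms contained in the longer ones. The others were TTTGCAT (in 10.5% of the windows of these genes and 4.12% of all windows), CCCNNGGG (18.4% and 11.8%), GAGGAA (28.9% and 23.3%), GAGGAAGT (5.26% and 2.44%), AAAGAGGAA (7.89% and 1.18%), CAGGTG (31.6% and 17.2%), TGGGAA (34.2% and 21.6%) and the 10-base MEF2 site (0 of 38 windows and 0.140%). A match describes letters and not binding.

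Transcription factors of the B lineage did not move alike. Of the 9 genes, 6 passed the filter and 5 were called lower, and the median difference over the 9 was -0.23. Ikzf1, which encodes the lymphoid regulator Ikaros, read 7.24, 7.07 and 7.28 in HDAC2 KO and 8.16, 8.06 and 8.19 in control, 1.91-fold lower (-0.94, SE 0.061, limma adjusted p = 3.68e-05). A second Ikzf1 probe set, below the filter level, did not differ between groups beyond their spread (difference under 0.01, limma adjusted p = 0.996 over all probe sets). With the mean of both probe sets the difference was -0.47. Its relative Ikzf3, which encodes Aiolos, read 6.60, 6.52 and 6.44 in HDAC2 KO and 7.11, 7.14 and 7.0 in control, 1.48-fold lower (-0.56, SE 0.054, adjusted p = 0.000321). Its HDAC2 KO mean of 6.52 was under the filter level, and in its other probe sets the groups overlapped (-0.13 and -0.21).

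Ebf1, the factor that specifies the B lineage and is also made in adipocytes and stroma, lay below the filter. It read 5.92, 6.03 and 6.12 in HDAC2 KO and 6.62, 6.60 and 6.77 in control, and was called lower without the filter (-0.64, SE 0.070, limma adjusted p = 0.00238). In 4 of its 5 probe sets the groups did not overlap and HDAC2 KO was lower. Adipocyte markers moved too: Adipoq, the adiponectin gene, fell by 3.02 on the log2 scale, 3 of the 4 tested were called lower and 1 higher, and their list averaged 7.18 to 7.31 in HDAC2 KO and 8.70 to 8.79 in control; how much of the Ebf1 difference comes from fat was not tested.

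Mef2c, a factor of B cells that muscle and endothelium also use, was 1.23-fold lower, at 7.73, 7.80 and 7.70 in HDAC2 KO and 8.12, 8.04 and 7.96 in control (-0.30, SE 0.048, limma adjusted p = 0.00461). All 5 of its probe sets separated the groups, with differences between -0.31 and -0.28. Bcl11a and Spib were lower by small amounts. Spib, needed for B cell responses and in the gut for M cells, read 7.97, 8.03 and 7.94 in HDAC2 KO and 8.21, 8.12 and 8.12 in control (-0.17, SE 0.041, adjusted p = 0.0252). Bcl11a, a factor of lymphoid progenitors and neurons, read 7.50, 7.58 and 7.49 in HDAC2 KO and 7.86, 7.78 and 7.62 in control (-0.23, SE 0.063, adjusted p = 0.0395). Both calls were lost without HDAC2 KO replicate 1 or 3, without control replicate 1 or 2, without the signal filter and over every probe set, with adjusted p between 0.053 and 0.149 for Spib and between 0.0867 and 0.158 for Bcl11a. With the mean of its probe sets, Bcl11a differed by -0.04 (limma adjusted p = 0.533). In the other 6 Bcl11a probe sets the groups overlapped.

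Irf8, a factor of B cells, dendritic cells and macrophages, did not differ beyond the spread between arrays, at 9.65 ± 0.066 in HDAC2 KO and 9.67 ± 0.018 in control (SD, n = 3, limma adjusted p = 0.817), and its second probe set overlapped too. Pax5, the factor of B cell commitment, averaged 6.38 ± 0.26 in HDAC2 KO and 6.38 ± 0.085 in control, and Pou2f2, which encodes OCT2, averaged 5.76 ± 0.15 in HDAC2 KO and 5.78 ± 0.11 in control. Both lay below the filter with overlapping groups. At such signal a difference may go undetected.

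**Figure D3:**
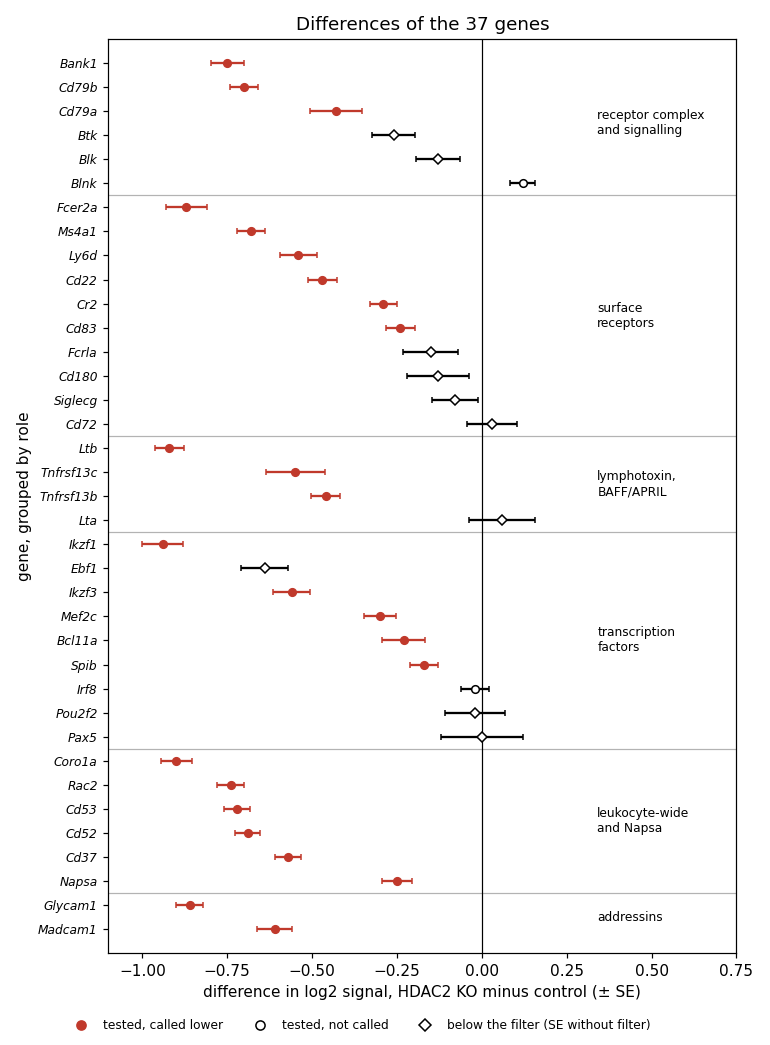
Difference in log2 signal of each of the 37 genes, HDAC2 KO minus control, with its SE, grouped by role. Filled red points are the 25 genes called lower, open circles the 2 tested and not called, and open diamonds the 10 genes below the signal filter, with the SE of the fit without the filter.

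The leukocyte-wide genes and Napsa, a protease gene of B cells, were called lower in 6 of 6 cases, with a median difference of -0.70. Coro1a, an actin-binding protein of lymphocytes, read 8.98, 8.90 and 8.92 in HDAC2 KO and 9.90, 9.86 and 9.76 in control, 1.87-fold lower (-0.90, SE 0.045, limma adjusted p = 8.86e-06). Rac2, the GTPase of blood cells, was 1.67-fold lower (-0.74, SE 0.039), the tetraspanin Cd53 1.65-fold (-0.72, SE 0.038) and the surface glycoprotein Cd52 1.61-fold (-0.69, SE 0.038). None of these groups overlapped. In a further Rac2 probe set, of lower signal, the groups did overlap (-0.25, limma adjusted p = 0.208 over all probe sets). A further Cd53 probe set of low signal was not called (-0.34, adjusted p = 0.231). Of the further Coro1a probe sets, 1 was called lower (-0.89) and 1 was not called (-0.19). Napsa, which is also made in lung and kidney, was lower by less, at 7.59 ± 0.074 in HDAC2 KO and 7.84 ± 0.0072 in control (SD, n = 3; -0.25, SE 0.043, adjusted p = 0.00579), and it was not called in the fit over every probe set (adjusted p = 0.0517).

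Cd37, a tetraspanin most abundant on mature B cells, read 7.36, 7.33 and 7.41 in HDAC2 KO and 7.98, 7.90 and 7.95 in control, 1.49-fold lower (-0.57, SE 0.038, limma adjusted p = 3.95e-05). A second Cd37 probe set, below the filter level on every array, fell by 0.51 on the log2 scale. The Cd37 promoter (RefSeq, GRCm38.p6, chr7:45238840-45239089, minus strand) is shown because it held GAGGAAGT, a site of PU.1 and SPIB, in capitals, beginning 25 bases before the start site on the opposite strand. The match overlaps one of AAAGAGGAA.
Cd37: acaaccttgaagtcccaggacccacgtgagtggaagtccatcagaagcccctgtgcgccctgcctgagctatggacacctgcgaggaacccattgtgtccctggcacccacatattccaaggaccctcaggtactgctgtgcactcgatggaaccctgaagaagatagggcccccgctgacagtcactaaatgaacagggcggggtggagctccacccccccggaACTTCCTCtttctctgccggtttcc
The other gene of the list with GAGGAAGT was Cd72, which was below the signal filter.

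Most further probe sets had low signal. Of the 32 probe sets that did not stand for their gene, 23 lay under the filter level on every array, 23 had a negative difference and 15 separated the groups with HDAC2 KO lower. Over all 69 probe sets of the 37 genes, 28 were called lower and 0 higher in a fit over all 45037 probe sets, against 2.08% lower and 1.72% higher among those. The groups did not overlap, with HDAC2 KO lower, in 42 of the 69, against 11.3% of all probe sets, and with HDAC2 KO higher in 1, against 11.9%. Probe sets of 1 gene differed in size of change, so a fold belongs to its probe set.

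**Figure D4:**
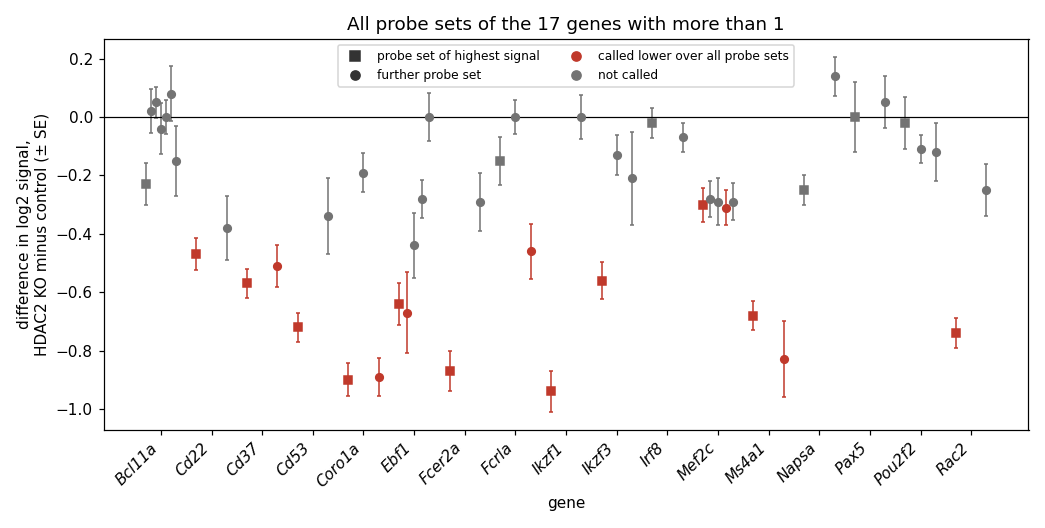
Difference in log2 signal, HDAC2 KO minus control, with its SE, for every probe set of the 17 genes that had more than 1. Squares are the probe sets of highest signal, circles the further ones, and red marks those called lower over all probe sets. The 5 probe sets of Mef2c lie together between -0.31 and -0.28, whereas the 2 of Ikzf1 lie apart.

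Other genes of B cell receptor signalling were lower in 6 of the 19 tested, higher in 1 and not called in 12, with a median of -0.11. Prkcb, the protein kinase C of B cells, was 1.47-fold lower (-0.56, SE 0.059, limma adjusted p = 0.000546), the adaptor gene Pik3ap1 1.22-fold (-0.28, SE 0.034) and the exchange factor gene Rasgrp3 1.18-fold (-0.24, SE 0.037). Vav3, an exchange factor also used outside the immune system, was 1.14-fold higher (0.19, SE 0.039, adjusted p = 0.0122), but was not called over every probe set (adjusted p = 0.1), and the groups overlapped in its other probe sets (0.07 and 0.06). Many genes of this list are expressed in other cells of the colon.

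Genes of lymphoid tissue organisation and homing were called lower in 11 of the 25 tested and higher in 1, with a median of -0.05. Ccr7, the receptor that guides lymphocytes to T cell zones, was 1.82-fold lower (-0.86, SE 0.050, limma adjusted p = 1.96e-05), the interleukin 7 receptor gene Il7r 1.67-fold (-0.74, SE 0.074) and the chemokine receptor gene Ccr6, found on B cells and on cells of isolated follicles, 1.48-fold (-0.56, SE 0.037). Cxcr4, a chemokine receptor of many cell types, was 1.21-fold higher (0.28, SE 0.034). Of 8 tested genes of germinal centres and follicular dendritic cells, 3 were called lower, Clu, Basp1 and Mfge8, by 1.16-fold or less, and 5 were not called. Without the signal filter Basp1 (limma adjusted p = 0.057) and Mfge8 (adjusted p = 0.114) were not called. Clu and Mfge8 are also made by epithelium and other cells. Rgs13, a regulator of G protein signalling in germinal centre B cells, averaged 7.36 ± 0.30 in HDAC2 KO and 7.68 ± 0.069 in control (SD, n = 3) with overlapping groups (adjusted p = 0.12).

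Markers of other lymphocytes moved with the B cell genes. Plasma cell genes were called lower in 6 of 10 tested and higher in 1. Ighm, the heavy chain of IgM that both B cells and plasma cells make, read 9.11, 9.10 and 9.09 in HDAC2 KO and 10.51, 10.50 and 10.47 in control, 2.62-fold lower (-1.39, SE 0.031, limma adjusted p = 1.35e-07). Jchain, which joins secreted IgA and IgM, was 1.23-fold lower (-0.30, SE 0.053). The list averaged 9.02 to 9.10 in HDAC2 KO and 9.29 to 9.30 in control.

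T cell and NK cell markers were called lower in 6 of 8 tested and higher in 0, while 11 more lay below the filter. Their list averaged 6.26 to 6.33 in HDAC2 KO and 6.91 to 6.93 in control. Ms4a4b, a membrane protein of T cells, was 6.33-fold lower (-2.66, SE 0.060, limma adjusted p = 1.35e-07), Cd3d, a chain of the T cell receptor complex, was 2.59-fold lower (-1.37, SE 0.066) and Lat, an adaptor of T cell receptor signalling, 1.72-fold (-0.78, SE 0.10). Ikzf1, Ikzf3, Ltb, Coro1a, Rac2, Cd37, Cd52 and Cd53 are also expressed by T cells, and the part of T cells in their differences was not tested. The defining B cell markers Cd79a, Cd79b and Ms4a1 were lower by 1.35-fold to 1.62-fold, while Pax5 was under the filter. The pan-leukocyte gene Ptprc was 1.74-fold lower (-0.80, SE 0.046, limma adjusted p = 1.79e-05). How much of the B cell gene differences goes with leukocytes in general was not tested.

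Epithelial and muscle markers went the other way or did not pass. Of 12 colon epithelial markers, 3 were called higher and 0 lower, and the list averaged 13.12 to 13.15 in HDAC2 KO and 12.99 to 13.01 in control. Of 10 smooth muscle markers, 4 were called higher and 0 lower. Fibroblast markers were called lower in 4 of 10 cases. Of these, Thy1 (-0.35, SE 0.041) is also counted in the T cell list. Fn1 (-0.11, SE 0.033) was not called without the signal filter (limma adjusted p = 0.13). Of 6 tested markers of M cells and follicle-associated epithelium, the epithelium that covers lymphoid follicles, 1 was called higher, the chemokine gene Ccl9 (1.49-fold; 0.57, SE 0.037), and 1 lower, Marcksl1 (1.36-fold; -0.44, SE 0.060). The part of the amount of lymphoid tissue in each sample was not tested.

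**Figure D5:**
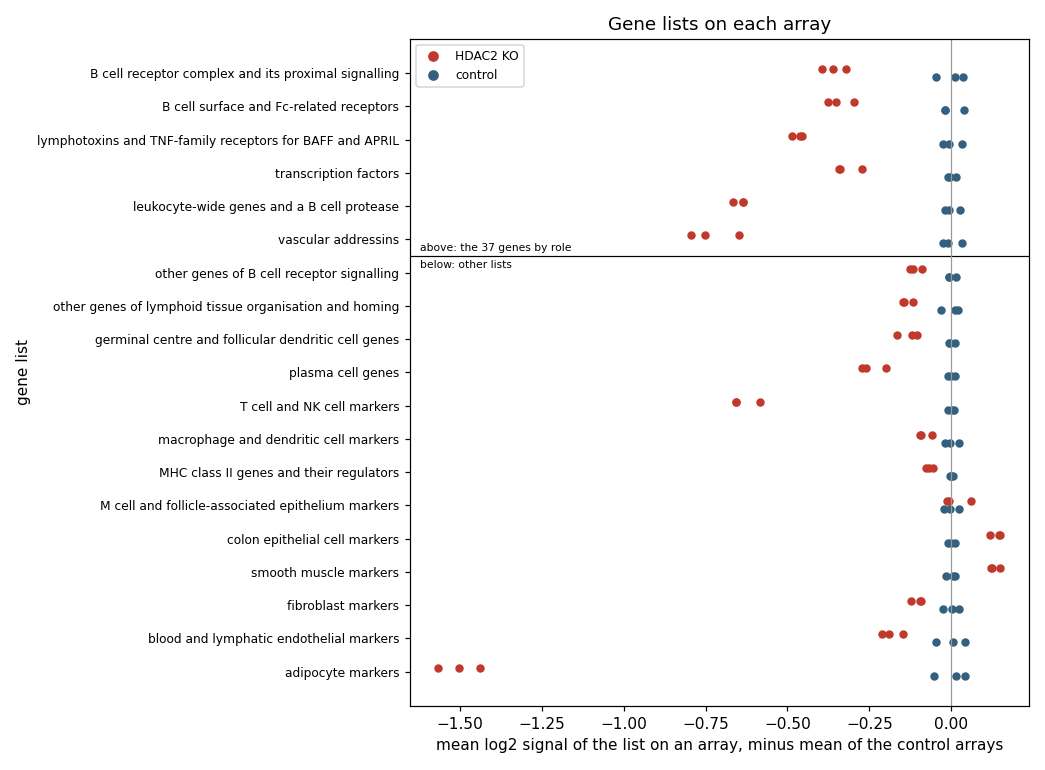
Mean log2 signal of each gene list on each array, minus the mean of the control arrays, with HDAC2 KO in red and control in blue. The 6 role groups of the 37 genes stand above the line and other lists below it. Below it, the epithelial and smooth muscle lists are higher on every HDAC2 KO array than on every control array. The list of M cells and follicle-associated epithelium overlaps. All remaining lists are lower on every HDAC2 KO array than on every control array, the T cell and adipocyte lists by most.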

How the data were processed

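The authors deposited log2 signals per probe set that RMA had produced, per the submitters' processing notes; the notes name no version, and the log2 scale was inferred from the range of the values, 2.39 to 14.6. RMA gives all arrays one distribution, which hides any difference in the total amount of RNA. Without scan dates, batches of hybridisation could not be examined. With 3 arrays per group the precision is limited.

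Of 45101 probe sets, 64 were array controls, 34945 had 1 gene symbol in the platform annotation, 932 had several and 9160 had none listed. Through the Entrez identifier, 34741 were matched to RefSeq on GRCm38.p6, and 0 symbols changed. The comparison used lmFit and eBayes of limma 3.58.1 (R 4.3.3), with the group as the only term, and the script was tested on simulated data. Promoter sequences came from RefSeq.

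Named are all members of the list, Hdac2, and up to 4 genes of each other list with the smallest p. Some are left out of the text for length. Xist, Eif2s3y, Kdm5d and Ptprc were chosen after their values were seen. Members and lists were chosen with earlier results of these data known.

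The labels number the mice 1 to 3 in each group. Deviations from the group means correlated with r between 0.201 and 0.336 for same-numbered arrays of different groups, and between -0.367 and 0.183 for others. The labels state no pairing, and 0.201 is close to 0.183, so whether the numbers pair the arrays is not settled. The main fit, which gave the SE and adjusted p above, left the replicate number out. It entered an alternative fit as a block. There the limma adjusted p was 0.000347 for Glycam1, against 5.19e-06, and 0.0218 for Cd79a, against 0.00662.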

Additional observations from a re-analysis of the deposited data

How the results depend on the processing

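The counts of genes and members called, the median difference, Hdac2 and the 27 members tested were recomputed under up to 18 alternatives; Ebf1, the other lists, the probe set counts and the motifs were not. In all, 21 of the 25 called genes kept their direction and their call in every one that tested them. The exceptions were Bcl11a, Spib, Cd83 and Napsa, as given above. With the replicate number as a block, 25 members were called lower, 0 of the 25 calls changed and 1943 genes were called in all, against 1952. With the filter at the 60th percentile, 12 members were tested and 10 called lower, fewer by construction, and the median difference over the members tested was -0.709, against -0.562 at the 40th. It was -0.514 when probe sets were averaged per gene, and between -0.603 and -0.549 without single arrays. A further quantile normalization and centring on the array median each left 25 members called lower. With array weights, with an intensity trend and robust variances, or at an adjusted p under 0.10, 1 member, Blnk, was called higher. The difference of Irf8, which was never called, was -0.02, and changed sign with array weights (0.03) and without HDAC2 KO replicate 2 (0.01), with a range of -0.05 to 0.01 without single arrays. Over all genes, 3506 were called with array weights, 954 at an adjusted p under 0.01, and between 1130 (without control replicate 1) and 2107 without single arrays; without control replicate 2 it was 1276 and without HDAC2 KO replicate 1 1274. The difference of Hdac2 was -0.22 without probe sets that can bind several transcripts (adjusted p = 0.0957) and -0.21 over all probe sets (adjusted p = 0.0768), neither of them called, and between -0.24 and -0.18 without single arrays. The cause of these changes was not tested. Signal near the filter level limits what could be seen for the 10 members below it.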

Other observations

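Most tested genes of antigen presentation, which B cells share with dendritic cells and macrophages, were not called. Their list averaged 8.79 to 8.81 in HDAC2 KO and 8.87 to 8.88 in control, with a median difference of -0.09 over the genes tested. Of 8 tested MHC class II genes and regulators, 1 was called lower, 2 higher and 5 were not called. Among all genes tested, 8.20% were called lower and 9.68% higher. Cd74, the invariant chain, read 10.37, 10.31 and 10.36 in HDAC2 KO and 10.71, 10.72 and 10.64 in control, 1.27-fold lower (-0.34, SE 0.037, limma adjusted p = 0.000633). H2-Eb1, a class II beta chain, was 1.14-fold higher (0.19, SE 0.030, adjusted p = 0.00419), but was not called over every probe set (adjusted p = 0.0634). Probe sets of H2-DMb2 went in opposite directions, 2 higher (0.28 and 0.25) and 1 lower (-0.26), so its direction is uncertain. H2-Ob, a B cell chaperone of class II loading, averaged 6.80 ± 0.18 in HDAC2 KO and 7.06 ± 0.037 in control (SD, n = 3) and was not called (adjusted p = 0.0646).

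Macrophage and dendritic cell markers were called lower in 3 of 8 tested and higher in 1. Lyz2, the lysozyme of macrophages, was 1.24-fold lower (-0.32, SE 0.036), the colony-stimulating factor receptor gene Csf1r 1.23-fold (-0.29, SE 0.034) and the perforin-like gene Mpeg1 1.14-fold (-0.19, SE 0.040), the last of which was not called without the signal filter (limma adjusted p = 0.0536). Cd14, the endotoxin co-receptor, was 1.25-fold higher (0.32, SE 0.035, limma adjusted p = 0.000602).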
